A study of Homo sapiens with 6 samples.

Results

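The genes described here encode HSF1, the transcription factor of the heat shock response, and 9 chaperones and co-chaperones of the HSP70, HSP90 and mitochondrial chaperonin systems. They are HSF1, HSPA8, HSPA4, HSPH1, HSP90AA1, HSP90AB1, DNAJB1, DNAJB6, AHSA1 and HSPE1, a fixed list of 10 among the 20289 genes of the footprint table, each found through its Ensembl identifier. All 10 had at least 1 FPKM in at least 3 libraries and so were among the 11566 genes tested. Ribosome footprints, the pieces of mRNA shielded from nuclease by a translating ribosome, were sequenced from RKO, a human colorectal cancer cell line. There were 3 shTRMT6 libraries (ShTRMT6 in the labels), from cells with a short hairpin RNA that lowers TRMT6, and 3 shControl libraries (ShControl), from cells with a control hairpin that the labels otherwise call WT. TRMT6 belongs to the complex that places the m1A mark on tRNAs. The labels name no clone, hairpin sequence or time after knockdown. Nothing says whether replicates came from separate cultures, and every p-value below reflects the spread among these 6 libraries alone, which may be technical.

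In unstressed cells HSF1 is held in check by chaperones. When unfolded proteins accumulate it forms trimers, binds heat shock elements, which are inverted repeats of the bases GAA, and drives chaperone transcription. HSP70 proteins bind exposed stretches of unfolded clients in cycles of ATP hydrolysis. J-domain proteins such as DNAJB1 and DNAJB6 hand over clients and trigger hydrolysis, HSP110 proteins (HSPH1, HSPA4) release the ADP, and HSP90 with its activator AHSA1 takes over late folding steps. HSPE1 is the lid of the mitochondrial HSPD1 chaperonin chamber.

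Heat shock element letters were found before start sites of 4 of these genes, and the matches are printed because the element is the sequence through which HSF1 acts. The search covered the 250 bases before each RefSeq start (GRCh38.p14) on both strands for 3 alternating units, GAANNTTC followed by NNGAA or TTCNNGAA followed by NNTTC, where N is any base. The shorter forms GAANNTTC and TTCNNGAA, which lie inside the longer ones, were searched too. Windows were held for 9 of the 10 genes, 15 in all, and none for HSF1. A match to the longer form was in 4 of the 15 windows, 1 each of HSPA8, HSP90AA1, HSP90AB1 and DNAJB6, against 155 of all 35116 windows (0.441%). DNAJB1 had only the shorter form, which 11.6% of all windows hold. Each match is shown 5′ to 3′ on the strand of the gene, with the 13 matching bases in capitals and 8 flanking bases on either side. The matches of HSPA8 begin 230 and 55 bases before the start (chr11:123062346-123062374 and chr11:123062171-123062199, minus strand). That of HSP90AA1 begins 88 bases before its downstream start (chr14:102087112-102087140, minus strand). Those of HSP90AB1 begin 165 and 112 bases before the last of its 3 starts (chr6:44247770-44247798 and chr6:44247823-44247851, plus strand). That of DNAJB6 begins 131 bases before the start (chr7:157336865-157336893, plus strand). The printed stretches of the downstream HSPA8 match and of the HSP90AA1 match overlap an exon in GENCODE 29, and the other 4 do not.
HSPA8, upstream match: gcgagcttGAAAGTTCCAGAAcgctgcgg
HSPA8, downstream match: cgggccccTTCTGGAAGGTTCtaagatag
HSP90AA1: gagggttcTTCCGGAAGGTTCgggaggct
HSP90AB1, upstream match: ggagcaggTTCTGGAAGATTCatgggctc
HSP90AB1, downstream match: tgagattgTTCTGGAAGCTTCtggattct
DNAJB6: agagccgaGAACCTTCGCGAAggtggggc
The letters describe the sequence only, and binding was not measured.

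Values are FPKM, footprint fragments scaled to gene length and to mapped library size, as deposited by the authors. A footprint level combines mRNA amount and ribosomes per mRNA, which cannot be told apart here. TRMT6 had 20.7, 21.9 and 24.1 FPKM in shTRMT6, below the 57.6, 58.4 and 95.3 FPKM in shControl. Estimated reads per library, from the steps between low values, were 2574000 to 4040000 in shTRMT6 and 2597000 to 3839000 in shControl. At that depth the 10 genes rested on an estimated 82 to 274 reads per library for HSPH1 and 7636 to 32294 for HSPA8, with the other 8 genes between. Of 9 colorectal epithelial markers 5 reached 1 FPKM in some library, among them EPCAM, KRT18 and CDX2, while CDH1, VIL1 and LGALS4 were at 0 in all. The leukocyte markers PTPRC and CD3E were at 0 and CD68 was not, endothelial markers summed to at most 0.54 FPKM and fibroblast markers to at most 2.82 FPKM. shControl replicate 3 stood apart: across genes its Pearson's r with the other controls was 0.944 and 0.936, against 0.964 between those controls, and many chaperone genes were highest in it. Results for these genes are therefore given with and without it.

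**Figure D1:**
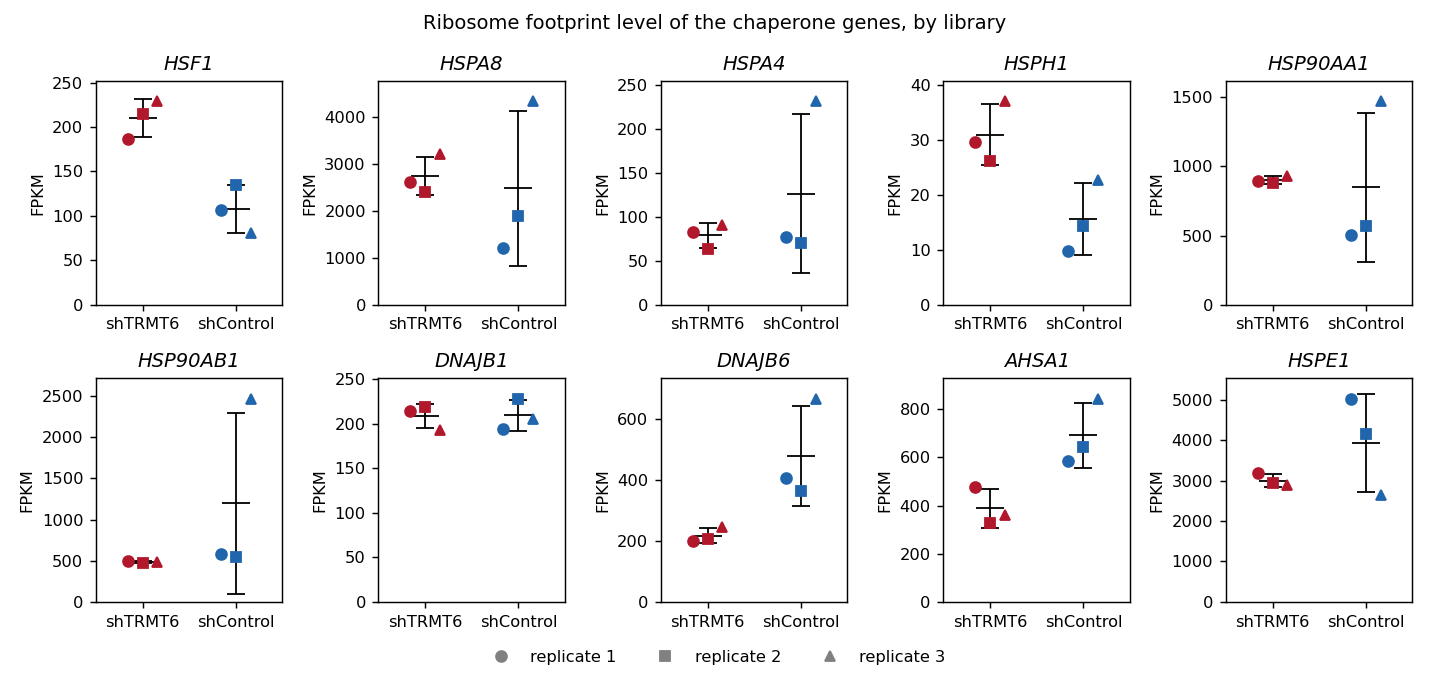
Footprint level (FPKM, linear axis from 0) of each gene in the 3 shTRMT6 and 3 shControl libraries, with the mean and SD as bars and replicate numbers as symbols. HSF1 and HSPH1 lay higher and DNAJB6 and AHSA1 lower in all shTRMT6 libraries, while HSPA8, HSPA4, HSP90AA1 and HSP90AB1 were highest in shControl replicate 3 (triangles).

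Of the 10 genes, HSF1 and HSPH1 were higher in shTRMT6 and DNAJB6 and AHSA1 lower, and the other 6 did not pass the test (limma on log2 of FPKM + 1, Benjamini-Hochberg adjusted p under 0.05 over all tested genes). Over all tested genes 26.5% were higher and 9.04% lower (35.6% in either direction), so 4 of 10 called is near the background. The median log2 fold change of the 10 was -0.17, against 0.39 for all tested genes. Scaling each library to its median moved the median of all tested genes to -0.09 and that of the 10 to -0.65. The median of the 10 was 0.03 without shControl replicate 3 (0.36 for all tested genes) and 0.10 with quantile normalization (-0.04 for all tested genes), so its sign depended on these choices. With median scaling none of the 10 was higher, and DNAJB6, AHSA1 and HSPE1 were lower. Of all tested genes 12.5% were higher and 19.5% lower with that scaling (32.1% in either direction). Without shControl replicate 3, 4 were higher (HSF1, HSPA8, HSPH1 and HSP90AA1) and 3 lower (DNAJB6, AHSA1 and HSPE1), against 28.6% higher and 12.4% lower of all tested genes (41.0% in either direction). The groups did not overlap for 5 of the 10, with HSF1 and HSPH1 above (37.0% of all tested genes) and HSP90AB1, DNAJB6 and AHSA1 below (14.3%).

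HSF1 (ENSG00000185122, plus strand of chromosome 8 from 144291591 to 144314722, GENCODE 29, GRCh38) had 187, 214 and 229 FPKM in shTRMT6, against 106, 135 and 80.7 FPKM in shControl. Every knockdown library lay above every control library, and the lowest control was replicate 3, the library in which 7 of the other 9 genes were highest among the controls. HSF1 averaged 210.03 ± 21.3 FPKM in shTRMT6 and 107 ± 27.1 FPKM in shControl (SD, n = 3 each; log2 fold change 0.99, SE 0.24, limma adjusted p = 0.0123). HSF1 passed without shControl replicate 3 (0.80, adjusted p = 0.0104). Its call ended with median scaling (0.51, adjusted p = 0.117) and when shTRMT6 replicate 3 was left out (0.92, adjusted p = 0.0551).

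HSPA8 (ENSG00000109971, minus strand of chromosome 11 from 123057489 to 123063230) encodes the constitutive cytosolic HSP70 and ranked 2 of 10 in FPKM. It had 2629, 2406 and 3209 FPKM in shTRMT6 and 1202, 1902 and 4341 FPKM in shControl. The knockdown libraries lay between the low controls 1 and 2 and the high control 3. With all 6 libraries the log2 fold change was 0.34 (SE 0.40, limma adjusted p = 0.531), and without shControl replicate 3 HSPA8 passed as higher (0.85, SE 0.22, adjusted p = 0.0177). With median scaling the estimate turned to -0.14 (adjusted p = 0.825).

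Of the HSP110 pair of nucleotide exchange factors HSPH1 was higher and HSPA4 did not pass. HSPH1 (ENSG00000120694, minus strand of chromosome 13 from 31134974 to 31162388), a heat-inducible gene, had 29.6, 26.3 and 37.1 FPKM in shTRMT6 and 9.74, 14.3 and 22.7 FPKM in shControl, with no overlap. It had the lowest FPKM of the 10 genes. HSPH1 averaged 31.0 ± 5.54 FPKM in shTRMT6 and 15.6 ± 6.56 FPKM in shControl (SD, n = 3 each; log2 fold change 1.01, SE 0.33, limma adjusted p = 0.0399), and without shControl replicate 3 the difference was 1.30 (adjusted p = 0.00904). The call ended with median scaling (0.53, adjusted p = 0.245) and in all 5 fits without 1 of the other libraries (adjusted p = 0.0685 to 0.136). HSPA4 (ENSG00000170606, plus strand of chromosome 5 from 133051962 to 133106449) had 82.3, 63.3 and 91.0 FPKM in shTRMT6 and 77.6, 70.8 and 232 FPKM in shControl. Controls 1 and 2 lay inside the range of the knockdown libraries and control 3 far above it, and HSPA4 did not pass with that library (-0.47, adjusted p = 0.397) or without it (0.07, adjusted p = 0.796).

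The cytosolic HSP90 genes are HSP90AA1, the more stress-inducible isoform, and HSP90AB1, the constitutive one, and the ratio between them did not overlap between the groups. HSP90AA1 (ENSG00000080824, minus strand of chromosome 14 from 102080738 to 102139699) had 891, 883 and 931 FPKM in shTRMT6 and 504, 571 and 1471 FPKM in shControl. HSP90AB1 (ENSG00000096384, plus strand of chromosome 6 from 44246166 to 44253888) had 500.5, 472 and 489 FPKM in shTRMT6 and 580, 540 and 2468 FPKM in shControl. HSP90AB1 was below every control in all knockdown libraries, while HSP90AA1 lay between the controls. Control replicate 3 held 4.26 times as much HSP90AB1 as the higher of the other controls, the largest such excess of the 10 genes, and 2.58 times as much HSP90AA1. With it neither gene passed (HSP90AA1 0.26, adjusted p = 0.597; HSP90AB1 -0.91, adjusted p = 0.174). Without it HSP90AA1 was higher in shTRMT6 (0.75, SE 0.13, adjusted p = 0.00458), and HSP90AB1 did not pass (-0.20, SE 0.13, adjusted p = 0.244).

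A ratio of genes within a library does not change when all values of that library are multiplied by the same factor. Quantile normalization and removal of level and length trends are not of this kind, and ratios were not computed under them. In the main fit the log2 fold changes of HSPH1 and HSPA8 were 1.01 and 0.34. They were 0.46 and 0.78 with quantile normalization and 0.31 and 0.43 with trends removed, with HSPH1 then the smaller. HSP90AA1 over HSP90AB1 was 1.78, 1.87 and 1.91 in shTRMT6 and 0.869, 1.06 and 0.596 in shControl. The shTRMT6 ratios were close to each other and all above those of shControl, including replicate 3 (2.26-fold, a log2 difference of 1.18). How short reads that match both HSP90 genes were divided is not given in the sources used here. Of 7 ratios compared, this one had an exact two-sided permutation p of 0.1, the smallest that 3 against 3 allows (adjusted over the 7, p = 0.175). The same p values held for 3 further ratios whose groups did not overlap. How often ratios of other gene pairs do so was not computed. Of single tested genes, 37.0% did not overlap with shTRMT6 above and 14.3% with shTRMT6 below. HSPH1 over HSPA8 was 0.0112 ± 0.000319 in shTRMT6 and 0.00695 ± 0.00152 in shControl (SD, n = 3 each; log2 difference 0.72). HSPA4 over HSPA8 was 0.0287 ± 0.00251 in shTRMT6 and 0.0517 ± 0.0137 in shControl (-0.82). Relative to HSPA8, HSPH1 was thus higher and HSPA4 lower in every knockdown library, in FPKM as deposited. DNAJB6 over DNAJB1 was 1.05 ± 0.191 in shTRMT6 and 2.32 ± 0.847 in shControl (-1.09). The ratios of DNAJB1 to HSPA8 (exact permutation p = 0.5) and of AHSA1 to the HSP90 sum (exact permutation p = 0.4) overlapped between groups. Without shControl replicate 3 neither overlapped, and the log2 difference was -0.87 for DNAJB1 over HSPA8, against -0.35 with it, and -1.02 for AHSA1 over the HSP90 sum, against -0.56 with it (exact permutation p = 0.1 each, the smallest possible).

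**Figure D2:**
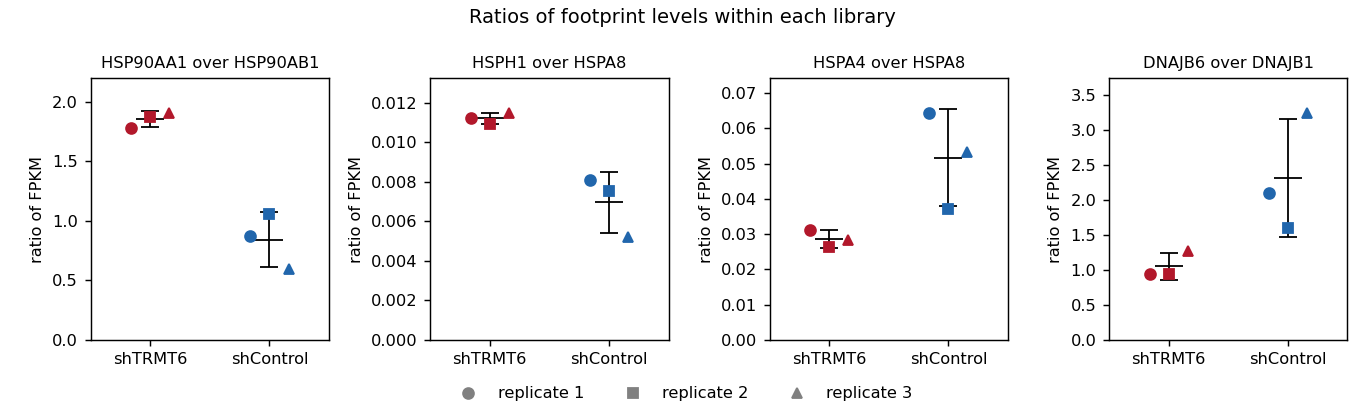
Ratio of FPKM values within each library (linear axes from 0) for the 4 ratios whose groups did not overlap, with mean and SD as bars. HSP90AA1 over HSP90AB1 and HSPH1 over HSPA8 lay above, and HSPA4 over HSPA8 and DNAJB6 over DNAJB1 below, in every shTRMT6 library.

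Of the J-domain proteins, DNAJB6, which keeps aggregation-prone proteins soluble, was lower, and DNAJB1, a heat-inducible partner of HSP70, did not pass. DNAJB6 (ENSG00000105993, plus strand of chromosome 7 from 157335381 to 157417439) had 200.2, 207 and 245 FPKM in shTRMT6, against 407, 365 and 667 FPKM in shControl, with no overlap. DNAJB6 averaged 218 ± 24.2 FPKM in shTRMT6 and 480 ± 164 FPKM in shControl (SD, n = 3 each; log2 fold change -1.09, SE 0.26, limma adjusted p = 0.0108). DNAJB6 was the only one of the 10 whose call held under each scaling, filter, pseudocount and left-out library tried at adjusted p under 0.05 (-1.57 to -0.83, adjusted p = 0.00283 to 0.0474). DNAJB1 (ENSG00000132002, minus strand of chromosome 19 from 14514770 to 14529770) had 214, 219 and 193 FPKM in shTRMT6 and 194, 228 and 205 FPKM in shControl. Its groups covered nearly the same range, also in control replicate 3 (log2 fold change 0.00, SE 0.20, adjusted p = 0.990). With median scaling DNAJB1 stood at -0.48 (adjusted p = 0.0862).

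AHSA1 (ENSG00000100591, plus strand of chromosome 14 from 77457870 to 77469474), which stimulates the ATPase of HSP90, had 479, 326 and 361 FPKM in shTRMT6 and 585, 645 and 845 FPKM in shControl. All knockdown libraries were below all controls. AHSA1 averaged 389 ± 80.4 FPKM in shTRMT6 and 692 ± 136 FPKM in shControl (SD, n = 3 each), a log2 fold change of -0.83 (SE 0.23, limma adjusted p = 0.0216). The value was -0.68 without shControl replicate 3 (adjusted p = 0.0231). The call ended when shTRMT6 replicate 2 (-0.72, adjusted p = 0.0841) or replicate 3 (-0.79, adjusted p = 0.0798) was left out.

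HSPE1 (ENSG00000115541, plus strand of chromosome 2 from 197499994 to 197503457), the mitochondrial co-chaperonin, had the highest mean FPKM of the 10. It had 3181, 2932 and 2887 FPKM in shTRMT6 and 5031, 4148 and 2632 FPKM in shControl. Control replicate 3 was here the lowest of all libraries. With 6 libraries HSPE1 did not pass (-0.34, SE 0.26, adjusted p = 0.323), and without that library it was lower in shTRMT6 (-0.61, SE 0.14, adjusted p = 0.0115). HSPD1, its partner, is read from the opposite strand, and its annotated span covers HSPE1. HSPD1 had 269, 218 and 249 FPKM in shTRMT6 and 276, 247 and 918 FPKM in shControl (-0.70, adjusted p = 0.233; -0.09 without replicate 3, adjusted p = 0.652). HSPE1 over HSPD1 was 11.8, 13.4 and 11.6 in shTRMT6 and 18.2, 16.8 and 2.87 in shControl (exact two-sided permutation p = 1). The shControl ratios lay on both sides of those of shTRMT6. Without shControl replicate 3 the groups did not overlap. The log2 difference was then -0.51, against 0.36 with it (exact permutation p = 0.1, the smallest possible). HSPA8, HSPE1 and the HSP90 genes have pseudogene copies, and HSPE1 overlaps the readthrough gene HSPE1-MOB4, so their reads are uncertain where copies or overlapping genes share them.

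**Figure D3:**
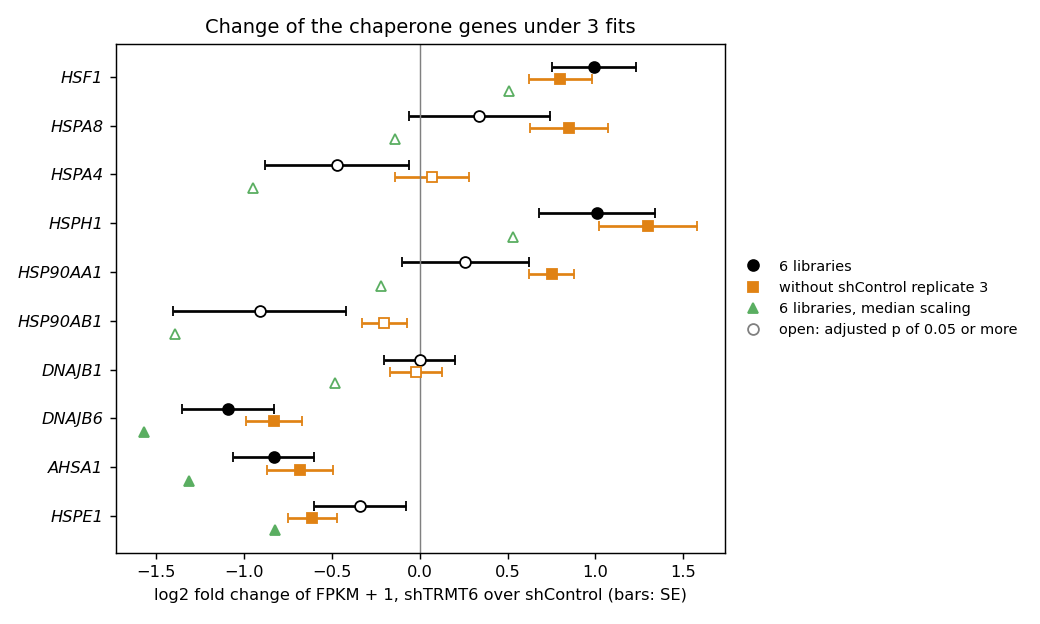
Log2 fold change of FPKM + 1, shTRMT6 over shControl, with its SE, from all 6 libraries (circles) and without shControl replicate 3 (squares), and the value after median scaling (triangles, no error drawn). Filled symbols passed an adjusted p of 0.05: DNAJB6 and AHSA1 are filled in all 3, and HSPA8, HSP90AA1 and HSPE1 change with the left-out library.

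Levels spanned from HSPH1 to HSPE1 in both groups. In shTRMT6 the mean FPKM fell in the order HSPE1, HSPA8, HSP90AA1, HSP90AB1, AHSA1, DNAJB6, HSF1, DNAJB1, HSPA4 and HSPH1. There, 4 neighbouring pairs overlapped in range, HSPE1 with HSPA8, HSP90AB1 with AHSA1, DNAJB6 with HSF1, and HSF1 with DNAJB1. In shControl HSP90AB1 stood before HSP90AA1 and HSF1 ranked 9 of 10, but 7 of the 9 neighbouring pairs overlapped and 2 were apart, DNAJB6 over DNAJB1 and HSF1 over HSPH1. The 10 genes held 0.54%, 0.49% and 0.57% of the FPKM sum in shTRMT6 and 0.49%, 0.50% and 0.89% in shControl. Only HSPH1 lay below the median level of tested genes (above 42.9% of them), and HSPE1 had one of the shortest coding sequences, 306 nt, longer than 2.2% of tested genes.

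Several chaperone genes were highest in shControl replicate 3. That library was at least 1.5-fold above both other controls for 6 of the 10 genes, HSP90AB1 (4.26), HSPA4 (2.99), HSP90AA1 (2.58), HSPA8 (2.28), DNAJB6 (1.64) and HSPH1 (1.58), against 13.4% of all tested genes. All 4 genes with the longer heat shock element letters were among the 6, as were HSPA4 and HSPH1, which had no match in their windows. It was at least 1.5-fold below both for HSPE1, against 20.0% of all tested genes. Among 21 other tested heat shock targets of HSF1, 12 were at least 1.5-fold above, including HSPA1B (3.83), HSPA4L (3.43), HSPD1 (3.33), DNAJA1 (3.21), STIP1 (2.83) and BAG3 (2.43). HSPA4L, DNAJA1 and STIP1 were named after their values were seen. ZFAND2A (0.45) and DEDD2 (0.49) were at least 1.5-fold below. The threshold of 1.5 was chosen after seeing the data, the counts carry no test, and whether the culture, the library or another feature of that sample moved these genes was not tested.

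**Figure D4:**
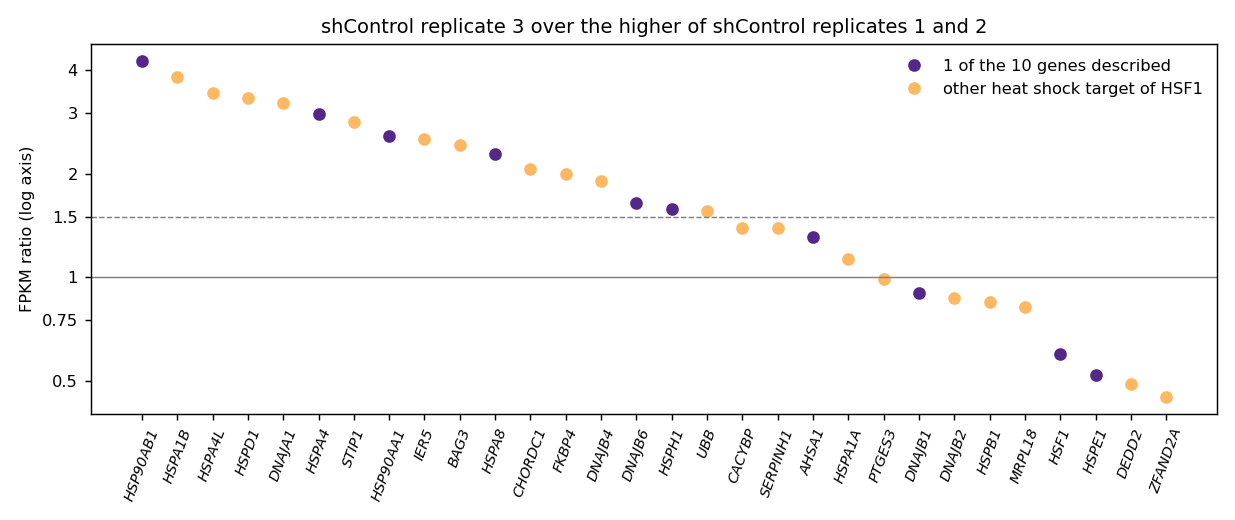
FPKM in shControl replicate 3 divided by the higher of shControl replicates 1 and 2 (log axis) for the 10 genes and other tested heat shock targets of HSF1. The dashed line marks 1.5, which 6 of the 10 genes exceed, led by HSP90AB1 at 4.26.

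Of the 21 other tested HSF1 targets 16 did not pass, 1 was higher and 4 were lower, against 26.5% higher and 9.04% lower of all tested genes. Their median log2 fold change was -0.27, against 0.39 for all tested genes. After median scaling 1 was higher and 6 lower (12.5% and 19.5% of all tested genes). Without shControl replicate 3 it was 6 higher and 4 lower (28.6% and 12.4% of all tested genes; median 0.24), so for this list the direction of the median depended on that library. ZFAND2A, which binds the proteasome under arsenite stress, was higher at 39.5 ± 6.20 FPKM in shTRMT6 and 13.1 ± 4.90 FPKM in shControl (SD, n = 3 each), a log2 fold change of 1.58 (limma adjusted p = 0.0061). CACYBP, which binds the SIAH1 ubiquitin ligase, was lower at 224 ± 7.36 FPKM in shTRMT6 and 651 ± 153 FPKM in shControl (-1.51, adjusted p = 0.00171). PTGES3, the HSP90 co-chaperone p23, was lower at 585 ± 8.42 FPKM in shTRMT6 and 1169 ± 37.0 FPKM in shControl (-1.0, adjusted p = 0.00392). MRPL18, a mitochondrial ribosomal protein, and UBB, a ubiquitin gene, were the others lower (-0.79 and -0.76). The inducible HSP70 copies HSPA1A (0.62, adjusted p = 0.194) and HSPA1B (-0.40, adjusted p = 0.535), which are nearly identical so that their reads are uncertain, BAG3 (-0.58, adjusted p = 0.243) and the small heat shock protein HSPB1 (-0.38, adjusted p = 0.201) did not pass. HSPA6, the strictly inducible HSP70, stayed below 1 FPKM in every library and was not tested.

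Other HSP90 genes and HSP90 co-chaperones had 4 of 24 genes lower and none higher by limma (1 higher at an unadjusted p under 0.05; 8 lower with median scaling; 5 lower and 3 higher without shControl replicate 3; median -0.22). Besides CACYBP and PTGES3 they were TOMM34, which links HSP70 and HSP90 (158 ± 7.10 FPKM in shTRMT6 and 268 ± 16.3 FPKM in shControl; SD, n = 3 each; -0.75), and NUDC (-0.66). HSP90B1, the HSP90 of the endoplasmic reticulum, stood at 0.14 (adjusted p = 0.577). HSP70 exchange factors and co-chaperones had 1 of 13 higher and 4 lower (median -0.27; none higher and 4 lower with median scaling; 1 and 4 without shControl replicate 3). BAG1, an exchange factor, was higher (1.60, limma adjusted p = 0.0148; 1.12 with median scaling, adjusted p = 0.0506). GRPEL1, the exchange factor of mitochondrial HSP70, was lower at 151 ± 19.6 FPKM in shTRMT6 and 350 ± 51.5 FPKM in shControl (-1.20, adjusted p = 0.00352), as were the exchange factors HSPBP1 (-1.43) and BAG2 (-0.87) and ST13 (-0.89), which stabilizes HSP70 bound to its client. The counts of the main fit stand against 26.5% higher and 9.04% lower of all tested genes. These shares were 12.5% and 19.5% with median scaling, and 28.6% and 12.4% without shControl replicate 3.

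J-domain proteins other than DNAJB1 and DNAJB6 had 9 of 40 tested genes higher and 3 lower, near the 26.5% and 9.04% of all tested genes (median 0.31). The counts became 2 and 4 with median scaling (12.5% and 19.5% of all tested genes) and 11 and 3 without shControl replicate 3 (28.6% and 12.4%). DNAJA4 was higher, at 62.0 ± 11.5 FPKM in shTRMT6 and 16.4 ± 5.98 FPKM in shControl (SD, n = 3 each; 1.91, limma adjusted p = 0.00309; 1.43 with median scaling, adjusted p = 0.00794). DNAJC27 (1.85) and DNAJC2 (1.05), which works at the ribosome exit tunnel, were higher (DNAJC2 0.57 with median scaling, adjusted p = 0.106). DNAJC9, which also binds histones, DNAJB11 of the endoplasmic reticulum and DNAJC30 of mitochondria were lower (-0.80, -0.72 and -0.77). The list had 0 lower genes when shTRMT6 replicate 1, 2 or 3 or shControl replicate 1 was left out. It had 1 without shControl replicate 2. In the HSP70 and HSP110 family, apart from HSPA8, HSPA4 and HSPH1, 2 of 9 tested genes were higher, HSPA12A (1.51) and HSPA14 (0.80), and none lower, also at an unadjusted p under 0.05 (limma; median 0.10). Without shControl replicate 3, 4 were higher and none lower, against 28.6% and 12.4% of all tested genes (median 0.68). With median scaling HSPA12A alone was higher, while HSPA14 lost its call (0.32, adjusted p = 0.293) and HSPA5, the HSP70 of the endoplasmic reticulum (-1.03, adjusted p = 0.0213), and HSPA13 (-0.69, adjusted p = 0.0445) were lower.

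Genes of the HSF family and HSF1 regulators had 4 of 11 tested genes higher and none lower by limma, against 6 and 0 at an unadjusted p under 0.05 (median 0.86, against 0.39 for all tested genes). Over all tested genes 26.5% were higher and 9.04% lower. With median scaling 2 of the list were higher, against 12.5% of all tested genes, and 5 without shControl replicate 3, against 28.6%. The 4 were CREBBP, an acetyltransferase (2.12), HSF4, a further heat shock factor (1.69), HSBP1L1 (1.16) and FBXW7, a ubiquitin ligase subunit (1.62, adjusted p = 0.0298). HSBP1L1 lost its call with median scaling (0.68, adjusted p = 0.0994), and FBXW7 with median scaling (1.14, adjusted p = 0.0873) and without shControl replicate 3 (1.08, adjusted p = 0.0563). HSF4 is a low gene, with 12.3, 12.6 and 29.5 FPKM in shTRMT6 and 4.14, 5.92 and 3.65 FPKM in shControl. Mitochondrial chaperones and proteases had 1 of 15 higher, SPG7 (2.09, adjusted p = 0.00345), and 1 lower, GRPEL1 (median -0.12; 1 and 3 with median scaling). Without shControl replicate 3 this list had 3 higher and 1 lower, against 28.6% and 12.4% of all tested genes, and its median turned to 0.09. The list of small heat shock proteins had 2 of 10 genes tested, HSPB1 and HSPB11, and none called by limma (1 lower at an unadjusted p under 0.05, HSPB11). With median scaling both were lower, as were 19.5% of all tested genes.

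The genes whose pattern over the 6 libraries was most like that of HSF1, by the root mean square difference of centred log2 values, were NTAN1 (0.062), ASAP1 (0.071) and SH3BP5L (0.074). ASAP1 had 199, 241 and 252 FPKM in shTRMT6 and 102, 140 and 85.0 FPKM in shControl. Those most like HSP90AB1 were PKM (0.064) and PGK1 (0.097), enzymes of glycolysis, and the helicase DDX1 (0.117). PKM had 724, 729 and 680 FPKM in shTRMT6 and 839, 791 and 3920 FPKM in shControl, with shControl replicate 3 far above the rest, as for HSP90AB1.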

How the data were processed

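The authors deposited FPKM, 1 value per gene and library, per the file headers. Per the labels' protocols, RNase I digestion, size exclusion columns and a small RNA kit gave libraries of protected fragments. Tools named in the submitters' processing notes are fastp, STAR and RSEM. For versions, build, annotation, strand use and multi-mapped reads, the sources used here give nothing, and each could change values of genes with near copies. As shares of a library, FPKM of some genes must drop where others take more. Columns NC and SH, numbered 1 to 3, were read as shControl and shTRMT6 replicates, a reading the labels do not spell out. Symbols came from a gene name table (20257 identifiers), positions and coding lengths from GENCODE 29 (20126 identifiers), and promoter sequences from RefSeq (GRCh38.p14).

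The test was that of limma (version 3.58.1, R 4.3.3), with an intensity trend and no covariate, applied to log2(FPKM + 1) of the 11566 genes that reached 1 FPKM in 3 or more libraries, adjusted by Benjamini-Hochberg. Fold changes on this scale understate the change of low genes. Lists are described by counts and medians over all their tested genes, not all of which are named or plotted. The members and lists were chosen with earlier results of these data known. Named genes are the 10 members, TRMT6, HSPA1A, HSPA1B, HSPD1, BAG3, HSPB1, up to 3 called genes per list and direction with the smallest p, and the 3 genes most like HSF1 and HSP90AB1. All others were named after their values were seen. Reads were estimated from steps between low values of genes with 1 coding transcript, 60.5% to 79.4% of which lay within 0.1 of a whole read, so count models were not fitted. In simulated data of 11566 genes for this comparison, 11% of 100 genes changed 2-fold and 64% of 100 changed 4-fold were recovered, with 4 false among 79 calls. No other genes were changed there and the noise was independent, whereas 35.6% of genes were called in the real data. These figures therefore do not measure recovery or false calls in the real fit. Python 3.11.15, numpy 2.4.6, pandas 2.3.3 and matplotlib 3.10.9 served for ratios, counts and plots. Median, FPKM sum and quantile scaling, removal of level and length trends, other filters, pseudocounts and thresholds, the replicate block and each left-out library were the alternatives.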

Additional observations from a re-analysis of the deposited data

How the results depend on the processing

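Over all tested genes 3069 were higher and 1046 lower. These became 1449 and 2260 with median scaling, 1602 and 1700 with quantile normalization, 1547 higher with level and length trends removed, and 1421 and 473 at adjusted p under 0.01. With 1 library left out, 1769 to 3290 were higher and 590 to 1427 lower, lowest without shTRMT6 replicate 3 for higher genes and without shTRMT6 replicate 1 for lower genes.

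Of the 10 genes 2 were higher and 2 lower. Higher genes numbered 0 with median scaling and at adjusted p under 0.01, and 1 with quantile normalization, trends removed or no low-value filter. Lower genes numbered 1 with quantile normalization or trends removed and 0 at adjusted p under 0.01. With 1 library left out, 0 to 4 were higher and 1 to 3 lower.

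HSF1 lost its call with median scaling (0.51) and kept its direction with 1 library left out (0.80 to 1.17). HSPH1 lost its call with median scaling (0.53), quantile normalization (0.46), trends removed (0.31) and no low-value filter (1.01, adjusted p = 0.0636), and ranged from 0.73 to 1.30 with 1 library left out. AHSA1 lost its call with quantile normalization (-0.55) and trends removed (-0.51), and ranged from -0.99 to -0.68. HSPE1 passed with median scaling (-0.82) and turned with quantile normalization (0.12) and trends removed (0.10), ranging from -0.61 to -0.14. Among genes without a call, median scaling turned HSPA8 (-0.14) and HSP90AA1 (-0.22). With 1 library left out HSPA8 ranged from -0.08 to 0.85, HSP90AA1 from -0.02 to 0.75, HSPA4 from -0.78 to 0.07 and DNAJB1 from -0.06 to 0.06. DNAJB1 turned to 0.07 with FPKM sum scaling, 0.09 with quantile normalization and 0.16 with trends removed. The cause of these changes was not tested.

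Of the 7 ratios, 5 kept their direction with 1 FPKM added to both genes, with the replicate block and with 1 library left out. Ratios were not computed with quantile normalization or with level and length trends removed. DNAJB1 over HSPA8 ranged from -0.87 to 0.02 and HSPE1 over HSPD1 from -0.51 to 0.82 with 1 library left out, and the HSPE1 ratio was negative only without shControl replicate 3. With the replicate number as a block, 3146 genes were higher and 1065 lower and the calls of the 10 genes stayed the same; deviations of same-numbered libraries correlated at 0.012, 0.013 and 0.102, and not every library correlated best with its own number, so the numbers were not taken as pairs. HSPH1, at an estimated 82 reads in its lowest library, had the fewest reads of the 10, and HSP90AB1 the largest SE (0.49).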

Other observations

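Relative to the other controls, genes with near-identical or adjacent partners parted in shControl replicate 3. HSPA1B had 354 FPKM there, against 87.8 and 92.6 FPKM in the other controls, while HSPA1A had 53.7 FPKM, against 26.6 and 47.5 FPKM. HSPA1B was above HSPA1A in every other library too, at 123 and 40.8 FPKM in shTRMT6 replicate 1 and 87.3 and 83.7 FPKM in shTRMT6 replicate 3. How reads matching both copies were divided is not given, so their split is uncertain. HSPD1 was 3.33 times the higher of the other controls and HSPE1, its neighbour and partner, 0.52 times. HSPA9, the mitochondrial HSP70, had 260, 279 and 373 FPKM in shTRMT6 and 190, 183 and 719 FPKM in shControl, and passed as higher without that library (0.68, limma adjusted p = 0.0223). HSPA9 was chosen for its values.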
